A study of Homo sapiens with 6 samples.

Results

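The list described here is the N6-methyladenosine (m6A) peak list of the control cells of the series, U-251 MG cells labelled shNC. U-251 MG is an established human glioblastoma line. The list rests on 1 immunoprecipitated and 1 input library, chosen by their labels, and holds 9206 of the 17375 peaks in the 3 lists of the series. The other lists come from the same line carrying shTRA2A or shMETTL3, with 1 library pair each, and enter no result below. The label shNC is read as the control because the design text of the series names a control, and the labels give no further detail of the hairpin. Growth and RNA extraction are described alike for all 6 libraries. Fragmented total RNA was pulled down and made into stranded libraries beside its input. There is no replicate of the control, so no test and no error between samples can be given. Every interval below is an exact 95% one by Clopper and Pearson, which covers counting error only. Read depth per library is not stated in the sources used here.

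m6A is the most common internal modification of messenger RNA. A complex built around METTL3 and METTL14, with WTAP, VIRMA, ZC3H13 and RBM15 as partners, writes it, FTO and ALKBH5 can remove it, and YTH-domain proteins read it and steer splicing, translation and decay. It is placed mostly at a short motif with GGAC at its core, often in long internal exons and near stop codons. In methylated RNA immunoprecipitation a peak is a stretch where fragments held by the antibody outnumber those of the input. A peak needs transcribed RNA, and expression was not analysed here, so an unmethylated transcript and one with too little RNA or coverage cannot be told apart when a gene has no peak.

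No genome sequence was used here, so bases are shown only where a peak lies wholly within one of the 35116 RefSeq start-site windows (GRCh38.p14, 27305 genes), each running from just before to just after an annotated start. That held for 40 of 9206 peaks (0.434%). GGAC, searched on the strand of the peak, occurred in 13 of these 40. It was in 5 of 24 peaks of 50 nt (20.8%) against 17.1% of all 50 nt pieces of the windows, and in 6 of 13 peaks of 75 nt (46.2%) against 24.6% of 75 nt pieces. GGACT, which contains GGAC, was in 1 of the 24 (4.17%, against 4.53% of pieces) and 1 of the 13 (7.69%, against 6.87%). With so few peaks these shares only describe the 40. The stretches below, each 30 bases long and 5′ to 3′ on the strand of the peak, show a GGAC of the peak with its surroundings, with every GGAC in capitals. In TSC22D1, BTBD9 and SNX33 the stretch runs past an edge of the peak. They belong to the 7 coding genes with the strongest such peaks that hold GGAC on the strand of the gene. CREBZF encodes a leucine zipper transcription factor, ZNF146 a zinc finger protein, TSC22D1 a transcriptional regulator, NFYA a CCAAT-binding subunit and SNX33 a sorting nexin.
CREBZF: acttaccttagtgGGACatcttcaccGGAC
ZNF146: tgaaacacaacctGGACtgaaatcatgagg
TSC22D1: acagtatagcagaGGACactgagagctatg
BTBD9: agtgaggaatcggGGACaggGGACaccagc
NFYA: tgactaactgaatGGACgctttgtattcag
ZNF275: gacagaacatgatGGACcacGGACaccacc
SNX33: gtttctgggccatGGACattgctttgaaga
The CREBZF stretch is at chr11:85663721-85663750 (minus strand, GRCh38) in a 200 nt peak that scored 26.3. The ZNF146 stretch is at chr19:36235846-36235875 (plus strand), in a 75 nt peak that scored 15.5, a weaker one than the main ZNF146 peak described below. The remaining stretches are at chr13:44575660-44575689 (TSC22D1, minus), chr6:38175093-38175122 (BTBD9, minus), chr6:41097852-41097881 (NFYA, plus), chrX:153351986-153352015 (ZNF275, plus) and chr15:75648903-75648932 (SNX33, plus). For CREBZF and SNX33 the window is that of the gene itself and for the others that of a neighbouring or nested gene. The peak lay early in its gene in TSC22D1 (1.14% of the way along) and SNX33 (7.12%), and late in CREBZF (76.9%), NFYA (84.8%), ZNF146 (87.8%), ZNF275 (95%) and BTBD9 (98.6%). The 5 peaks other than those of CREBZF and ZNF146 scored between 10.1 and 11.2, below the median of the list, 12.4. The CREBZF peak was above its 75th percentile, 18.4.

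Taken from first to last base, peaks also touched 16 of the 1562 miRNA hairpins in the RefSeq table. A peak may consist of blocks with gaps between them, and a hairpin in such a gap counts too. On the strand of the hairpin 10 were touched. For 3 of those the peak was 200 nt wide or less. A 200 nt peak of the long non-coding gene MIR9-2HG (score 23.5) shared 60 of the 87 nt of the MIR9-2 hairpin (chr5:88666853-88666939, minus strand). A 50 nt peak that scored 7.88 lay wholly within the 94 nt MIR423 hairpin (chr17:30117079-30117172, plus strand) near the start of NSRP1. A 107 nt peak in GOLGA8B (score 9.15) covered all 82 nt of MIR1233-2. Signal from a hairpin and from the longer transcript around it cannot be told apart. The mature sequences of the first pair of hairpins are shown with the seed, bases 2 to 8, in capitals.
hsa-miR-9-5p: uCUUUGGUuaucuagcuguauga
hsa-miR-9-3p: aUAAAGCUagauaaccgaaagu
hsa-miR-423-5p: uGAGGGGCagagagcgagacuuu
hsa-miR-423-3p: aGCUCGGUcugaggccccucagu
No seed is shared among these 4. MIR9-2 is one of the sources of miR-9, a miRNA known from neural progenitors. A further group of hairpins, MIR99B, MIRLET7E and MIR125A, lay between the first and last base of a 3932 nt SPACA6 peak that scored 38.0. Whether they lie in its blocks or in a gap was not examined. This peak was faced on the other strand by a 4307 nt peak that scored 37.6.

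Peaks fell in 4136 of 20050 coding genes, 20.6% (interval 20.1 to 21.2), and in 156 of 18303 long non-coding genes, 0.852% (0.724 to 0.996). Coding genes held 8851 peaks (96.1%), long non-coding genes 214 (2.32%) and pseudogenes and other genes 95 (1.03%), and 46 (0.50%) lay in no gene body. The score, the value the authors' peak caller gave each peak, is taken here as larger for a stronger peak, and its scale is not stated. It ran from 6.04 to 392 with a median of 12.4, and the strongest 10% of peaks began at 30. Widths ran from 50 to 9991 nt with a median of 125 nt. A peak in the list may consist of several blocks. Widths and shared bases are counted here from its first to its last base, any gaps between blocks included. Peaks are termed regular where they have a single block and a width that is a multiple of 25 nt and no more than 1000 nt. This held for 7356 peaks (79.9%). Where the RefSeq start-site windows gave the strand of a coding gene, 7037 of 7470 peaks (94.2%) were on it. The annotation used holds gene bodies without exons, so no peak is placed in an exon, intron or UTR.

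The highest score belonged to a pair of narrow peaks in the protocadherin beta cluster on chromosome 5. The pseudogene PCDHB19P held the peak of 392 (chr5:141240763-141240837) and PCDHB5, a neuronal-type cell adhesion protein, the peak of 391 (chr5:141137108-141137182). Both were 75 nt wide, and the PCDHB5 peak lay on the strand opposite to the gene. These narrow pairs are described near the end. The next gene was ANKDD1A at 246 (chr15:64951166-64957181, 6016 nt wide). EIF5B, a GTPase that joins the ribosomal subunits at initiation, reached 199 in a 3450 nt peak. HMGN5, a nucleosome-binding protein, also reached 199, in a 525 nt peak at chrX:81114624-81115148 that was its only one. FAM111A, a protease with roles in DNA replication and against viruses, reached 179 and IFIT5, an interferon-induced RNA-binding protein, 162. Genes known only by a locus number are left out of this order; LOC102724687, a long non-coding gene with peaks of 171 and 170.4, would follow FAM111A, and LOC107986651 had a peak of 135. The remaining genes among the 15 with the strongest peak were OGFRL1 (162), RASSF8 (153), ANKRD12 (150.1), IWS1 (149), RND3 (143), ZFPM2 (142), ZNF146 (136) and TXLNB (135). In OGFRL1, IWS1 and TXLNB the peak was on the strand opposite to the gene, as in PCDHB5.

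Among peaks on the strand of their gene and wider than 75 nt, the strongest were those of ANKDD1A, EIF5B, HMGN5, FAM111A, IFIT5, RND3 and ZNF146, followed by PANX1 and MAP3K4, both at 135, and PTPN12 at 131. This order leaves out genes whose strand is not known here, such as RASSF8 (153, 9826 nt wide) and PPIG (125, 375 nt wide). It was set after the narrow and opposite-strand peaks had been seen. RND3 encodes an atypical small GTPase, PANX1 a membrane channel, MAP3K4 a stress kinase and PTPN12 a tyrosine phosphatase. PRPF38B (125), RLIM (124), OGFRL1 (121, besides its opposite-strand peak), N4BP1 (121), PRP4K (119.6), NSRP1 (118) and ZC3H13 (118) came next. PRPF38B, PRP4K and NSRP1 act in splicing, RLIM is a ubiquitin ligase, and ZC3H13 belongs to the m6A writer complex. Some of these strong peaks were the only peak of their gene or far above its others. In EIF5B the other peaks scored 26.5 and 15.4, in FAM111A the other scored 9.5, and IFIT5, RND3, PTPN12 and POLR1F each had 1 peak. Others had several, such as ZC3H13 with 9, and of all coding genes with a peak 50.4% had exactly 1.

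None of the 15 genes with the most peaks was among the 15 with the strongest peak, but both lists are short beside the 4351 genes with a peak. Over coding genes, the median best score was 11.5 with 1 peak and 39.6 with 10 or more. The most peaks were in CENPF, a kinetochore protein of dividing cells, with 26. DST, a spectraplakin that links the cytoskeleton, had 25, VCAN, the matrix proteoglycan versican, 24, and FAT1, a giant cadherin, 21. MACF1, the other spectraplakin, had 19 and MKI67, which encodes the proliferation marker Ki-67, 17, as did BOD1L1, which protects replication forks. TUG1, PRRC2C and GOLGB1 had 16 each, SPEN 15, AKAP9 14, ZNF608 13, and SAMD9 and ICE1 12. All peaks of these 15 genes were on the strand of the gene, except 4 of the 16 in TUG1. Their best scores ran from 24.9 in ZNF608 to 109 in MKI67, so none of them reached the scores of the 15 genes with the strongest peak.

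Within these genes peaks gathered in a few stretches and left others empty. The 26 peaks of CENPF ran over 50.1 kb of its 61.4 kb body with scores from 9.22 to 63.8, and 18 of them lay in 3 clusters, the larger of which ran between 60.4% and 72.7% of the way along the gene. The 24 peaks of VCAN fell in separate groups: 9 between 43.2% and 45.5%, 9 between 59.1% and 63.3% with the best peak of 83.9 at 61.6%, and 3 between 98.2% and 98.9%. FAT1 had 5 peaks between 12.4% and 14.4%, with its best score of 65.1, then none until 64.7%. In DST, whose body is 497 kb long, all 25 peaks lay in the 3′ part from 52.8% on, and in MACF1 all 19 lay from 49.8% on. MKI67 had its best peaks, 109 and 65.9, at 56.2% and 81.7%.

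**Figure D1:**
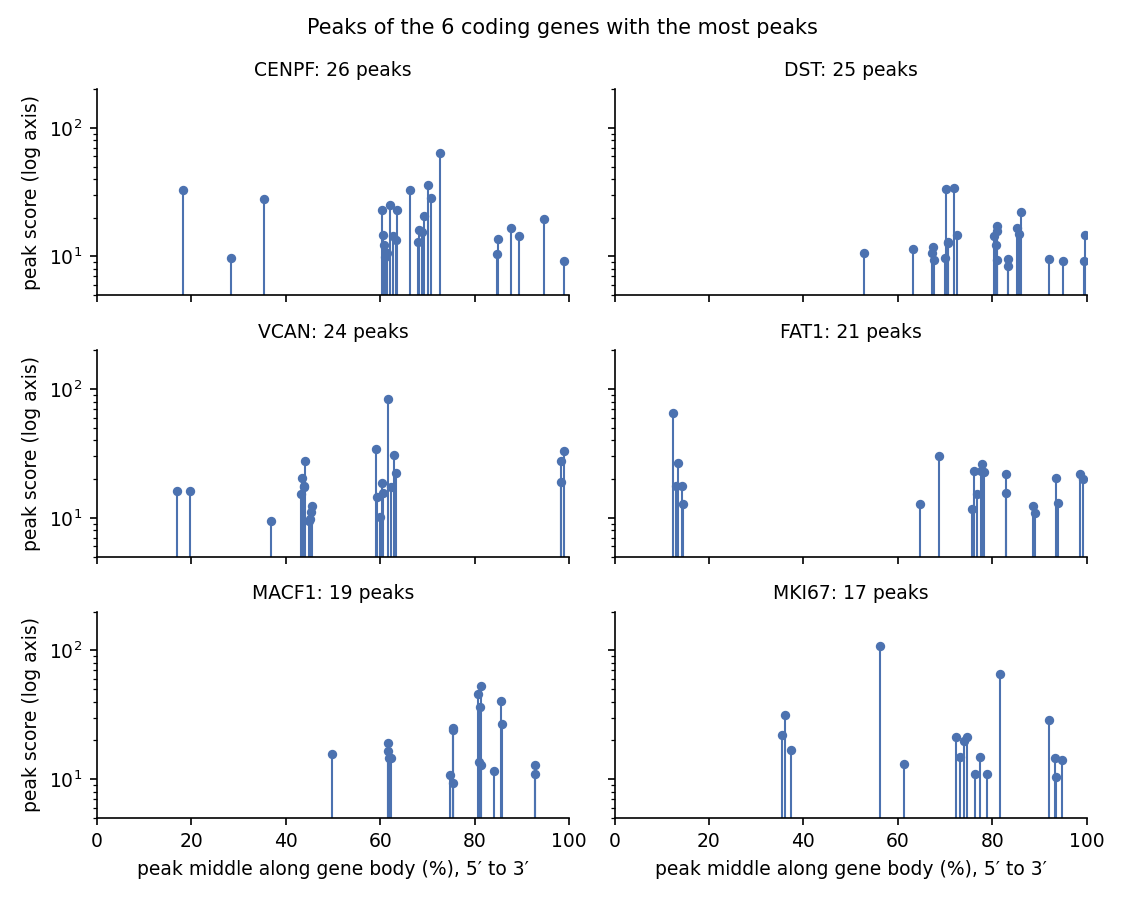
Position (percent of the gene body, 5′ to 3′) and score (log axis) of every control peak in the 6 coding genes with the most peaks, 1 point per peak. VCAN shows 3 dense groups, FAT1 a group near 13% and then none until 64.7%, and DST and MACF1 have no peak in the 5′ part of the gene.

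Per length of gene body the order was different. Of genes with at least 5 peaks, MGAT2, a Golgi enzyme of N-glycan synthesis, had 26.1 peaks per 10 kb, followed by RSC1A1 with 25.9, TUG1 with 15.8, PCDHB16 with 15.6 and the transcription factor SOX4 with 14.4. GCC1 had 14.1 and RANBP6 10.9. CENPF had 4.24 and DST 0.503. The dense genes have short bodies, from 2.32 kb in RSC1A1 to 10.1 kb in TUG1, and in MGAT2, PCDHB16 and TUG1 some peaks were on the opposite strand. SOX4 had 7 peaks on its own strand, with scores of 10.3, 11.5, 18.2, 11.7, 18.6, 17.0 and 22.7 from 5′ to 3′.

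Most genes with a peak had few. Of the 4136 coding genes, 2083 (50.4%) had exactly 1, 347 (8.39%) had 5 or more, 38 had 10 or more and 11 had 15 or more. With peaks within 100 nt of each other merged, 4.09% had 5 or more, and the same share was left when only peaks wider than 75 nt were kept. The 414 genes with the most peaks held 2654 of the 8851 coding peaks (30.0%). The median best score was 11.5 in genes with 1 peak, 17.3 with 2 to 4, 28.4 with 5 to 9 and 39.6 with 10 or more, where the best is taken over more peaks. Gene body length moved with both measures. Genes with a peak had a median body of 43.2 kb against 20.2 kb without. The share with a peak was 5.09% in the shortest 10% of coding genes (at most 3.05 kb) and 29.0% in the longest 10%, with the highest share, 33.4%, in the step just below the longest. The part of length in the list counts below was not tested, and median body lengths are given beside them where they stand apart.

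**Figure D2:**
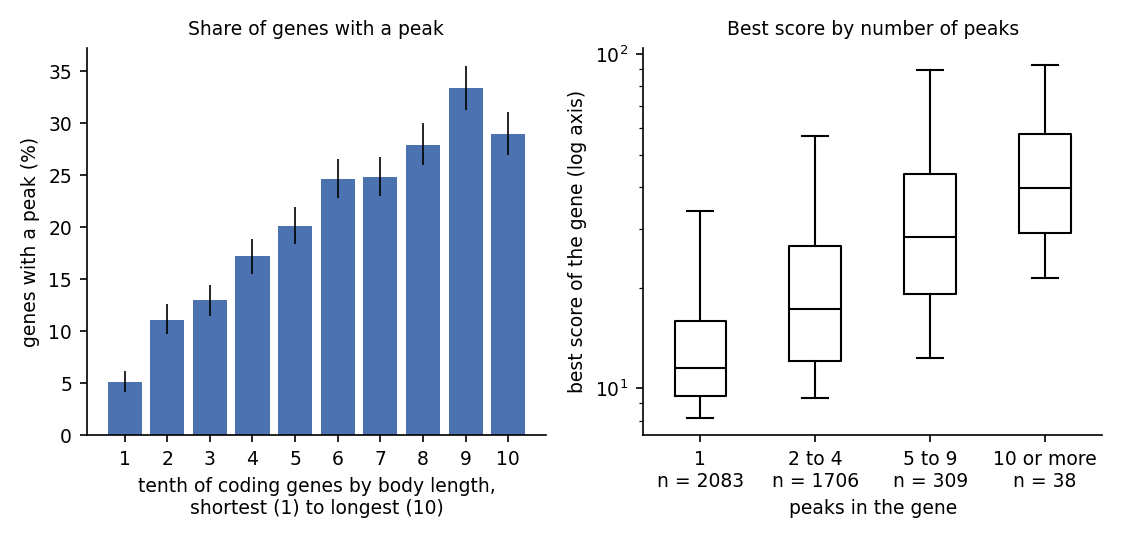
Left, share of coding genes with a control peak in 10 steps of gene body length, with exact 95% intervals; right, best score per gene (log axis) by number of peaks, with boxes from the 25th to the 75th percentile, the median as a line and whiskers at the 5th and 95th percentiles. The share was 5.09% in the shortest step and 33.4% in the ninth, and the median best score was 11.5 with 1 peak and 39.6 with 10 or more.

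Genes were grouped into families by the letters of the symbol before the first digit, which gave 105 families of 20 or more coding genes. The highest shares with a peak, against 20.6% of all coding genes, were in the 8 families named here. ZBTB transcription repressors had a peak in 27 of 42 genes (64.3%), DDX RNA helicases in 22 of 38 (57.9%), and CEP centrosome proteins and RBM RNA-binding proteins in 21 of 39 each (53.8%). ZFP genes followed with 10 of 21 (47.6%), ZNF genes with 236 of 517 (45.6%, interval 41.3 to 50.1), KDM histone demethylases with 9 of 20 (45%) and FBXO ubiquitin ligase adaptors with 16 of 36 (44.4%). The ZNF genes, which encode zinc finger proteins, held 603 peaks. Their median best score was 12.3, against 14.2 over all coding genes with a peak. ZNF146, ZNF638, ZNF131 and ZNF800 had the strongest peaks among them. Their median body, 23.7 kb, was close to the 24.1 kb of all coding genes. With the best-scoring 50% of peaks, 22.6% of ZNF genes and 12.2% of all coding genes had a peak. On chromosome 19, 119 of 250 ZNF genes (47.6%) had a peak against 153 of 1201 other genes (12.7%), whose median body was 12.7 kb against 23.3 kb.

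No peak was found in 8 families. The largest was that of the olfactory receptors, 0 of 392 OR genes, whose interval reaches up to 0.937%. The others were KRTAP hair keratin-associated genes (0 of 94), CCL chemokines and TAS taste receptors (0 of 28 each), CT genes (0 of 25), PRAMEF genes (0 of 23), UGT glucuronosyltransferases (0 of 22) and HLA genes (0 of 21). Many of these are known to be expressed in specialised tissues.

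Genes of the basic machinery differed among themselves. Of 82 cytosolic ribosomal protein genes 4 had a peak (4.88%, interval 1.34 to 12): RPL41, RPL22, RPL37 and RPL29, with 1 peak each. Mitochondrial ribosomal protein genes had a peak in 16 of 77 (20.8%), at the level of all coding genes. Complex I subunits (NDUF) had 3 of 36 (8.33%, interval 1.75 to 22.5) and proteasome subunits (PSM) 5 of 39 (12.8%, 4.30 to 27.4), and both intervals include the 20.6% of all coding genes. Histone genes had a peak in 3 of 73 (4.11%), near the 5.09% of the shortest 10% of coding genes, and these included H2BC5 and H1-10. Median bodies were 5.03 kb for ribosomal protein genes and 0.496 kb for histones. Of coding genes with bodies between 3.05 and 6.41 kb 11.1% had a peak, a share within the interval of the cytosolic ribosomal protein genes. On the mitochondrial genome 1 peak was called, in ND2, with a score of 28.0.

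Of 24 reference housekeeping genes only TBP, the TATA-binding protein, had a peak, which scored 10.3. The share was 4.17% (1 of 24, interval 0.105 to 21.1), and the interval includes the 20.6% of all coding genes. The median body of this list was 7.16 kb, against 24.1 kb over all coding genes. ACTB, ACTG1, GAPDH, TUBB, TUBA1B, B2M, HPRT1, PPIA, YWHAZ, EEF1A1, EEF2, PGK1, POLR2A and HSPA8 were among the 23 without a peak. Glycolysis had 2 of 20 (10%, interval 1.23 to 31.7, which includes the 20.6% of all coding genes), the glucose transporter SLC2A1 (19) and the hexokinase HK2 (12.6), and no peak in HK1, ALDOA, TPI1, ENO1, PKM, LDHA or LDHB. These are genes known for abundant transcripts in most cells. Of the 358 listed genes without a peak of their own, 7 were touched by a peak that was given to a gene nested in or overlapping them: ACTN4, DOT1L, KCNQ1OT1, KDM2B, MRE11, RB1 and SNHG14. In RB1 it was a 5504 nt minus-strand peak that scored 20.7 and lay in LPAR6, a receptor gene within RB1.

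**Figure D3:**
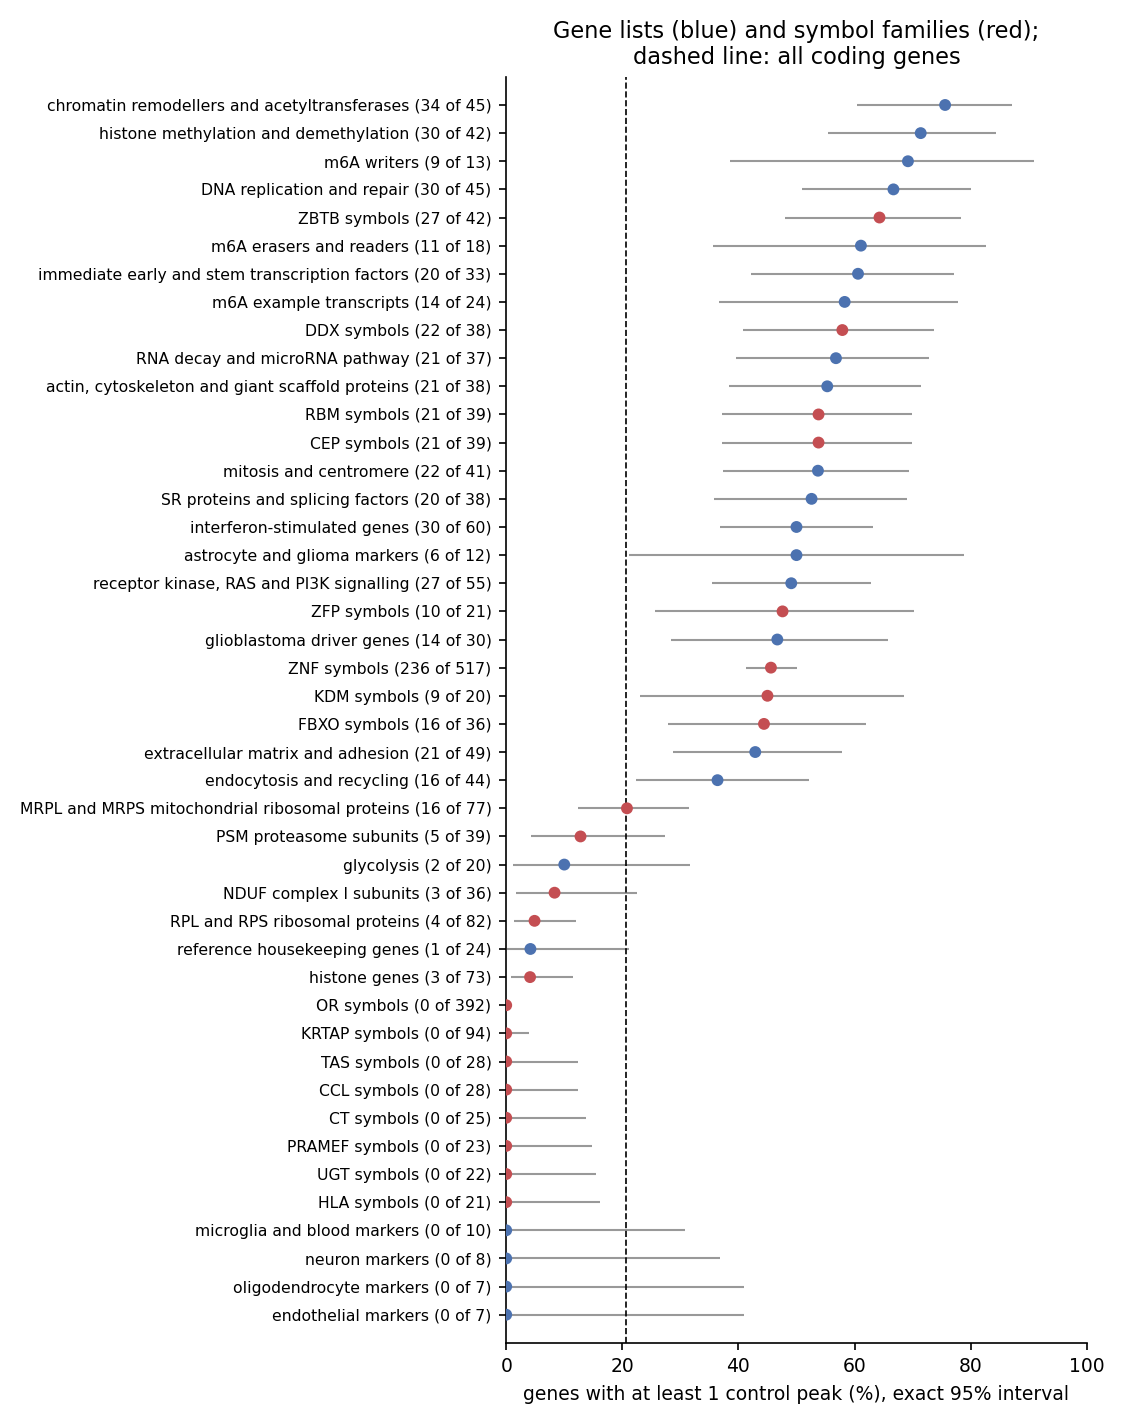
Share of genes with at least 1 control peak (percent, with exact 95% intervals) in gene lists (blue) and symbol families (red), with the counts beside each name; the dashed line is the 20.6% of all coding genes. Chromatin lists stand at the top, with 34 of 45 and 30 of 42, and ribosomal proteins, reference housekeeping genes and histones at the bottom of those with any peak.

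Genes of the m6A machinery are set against the 20.6% of all coding genes, which include the families without any peak. Of 13 writer genes 9 had a peak (69.2%, interval 38.6 to 90.9), but METTL3, METTL5, ZCCHC4 and TRMT112 had none. ZC3H13 had 9 peaks, which scored 118, 101, 79.6, 77.9, 25.8, 24, 19, 13.3 and 10.0, and the 118, 101 and 79.6 peaks were between 4149 and 8967 nt wide. WTAP had its highest score, 80.6, in a 50 nt peak on the opposite strand, and 27.3 in the best peak on its own strand. VIRMA reached 41.2 with 7 peaks, and RBM15B 40.9 with 3. METTL16, which methylates the S-adenosylmethionine synthetase transcript MAT2A, had 2 peaks of 14.7 and 9.08, and METTL14 1 of 10.6. Of 18 erasers and readers 11 had a peak (61.1%). The nuclear reader YTHDC1 reached 48.7 with 5 peaks, the demethylase FTO 43.2 with 1, YTHDF2 38.1 with 4 and RBMX 26.7 with 2. ALKBH5, YTHDC2, IGF2BP1, HNRNPA2B1, HNRNPC, FXR2 and ELAVL1 had none.

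The lists with the highest shares were those of chromatin regulators, with long bodies. All 24 lists were written with earlier results of these data known, so ranks among them only describe these lists. Over all coding genes 20.6% had a peak. Of 45 remodellers and acetyltransferases 34 had a peak (75.6%, interval 60.5 to 87.1), 142 peaks in all, with a median best score of 27.5 and a median body of 101 kb. CHD8 (96.6, 8 peaks), CHD9 (76.8, 7 peaks) and BAZ1A (61.2, 5 peaks) led. The acetyltransferase EP300 had 83.9 in a 75 nt peak on the opposite strand and 25.3 at best on its own. Among the 11 without a peak were SMARCA5, CHD4, DNMT1 and KAT5. Of 42 histone methylation genes 30 had a peak (71.4%, interval 55.4 to 84.3), with 110 peaks and a median body of 82.2 kb. KDM5A reached 67.2, NSD1 64.6, ASH1L 62.6 and KMT2C 52.3 with 11 peaks. KMT2E reached 133 in a 4255 nt peak on the opposite strand, against 41.5 on its own. KDM1A, EHMT2, DOT1L and SUV39H1 were among the 12 without a peak.

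SR proteins and splicing factors had the highest median best score of the 24 lists, whose members were chosen with earlier results known. Of 38 genes 20 had a peak (52.6%), against 20.6% of all coding genes. Their median best score was 49.3, against 14.2 over all coding genes with a peak. After PRPF38B and PRP4K came PNN (90.7), RBM25 (89.2), LUC7L3 (88.7) and BCLAF1 (81.7). SON reached 65.0 with 8 peaks. The 18 without a peak included SRSF1, SRSF2, SRSF3, SRSF6, SRSF7, TRA2A, TRA2B, U2AF1, SF3B1 and PRPF8. Other SRSF genes had peaks: SRSF11 reached 43.7 with 4 peaks, SRSF5 22.2, SRSF8 13.6 and SRSF4 12.8.

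Interferon-stimulated genes had a peak in 30 of 60 (50%), against 20.6% of all coding genes. Their median best score was 28.6, and the labels name no interferon treatment. Behind IFIT5 came SAMD9L (112), PARP14 (91.1), SAMD9 (89.3) and HERC6 (62.2). SAMD9 and SAMD9L restrict viruses, and PARP14 is an ADP-ribosyltransferase. The 9 peaks of SAMD9L scored between 18.7 and 112 and the 12 of SAMD9 between 15.8 and 89.3, so in these neighbours on chromosome 7 every peak was above the median of the list, 12.4. IFIT1 had 44.0 with 2 peaks and IFIT2 39.9 with 5. XAF1 had 11 peaks, 5 of them on the opposite strand. They came as pairs of like place and score: 57.1 opposite and 56.5 on the strand of the gene, 38.8 and 39.4, 32.2 and 25, 20.8 and 20.7, and 13.9 and 13.9. IFIT3, ISG15, MX1, STAT2, IRF1, GBP1 and IFITM3 were among the 30 without a peak.

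Cell type markers were few and are read against the 20.6% of all coding genes. Of 12 astrocyte and glioma markers SOX9 (54.2), NES (32.2), SLC1A3 (27.4), SOX2 (21.7), CD44 (17.7) and EGFR (15.4) had peaks, and GFAP, AQP4, S100B, ALDH1L1, VIM and CHI3L1 had none; the share was 50% (interval 21.1 to 78.9). No peak was in the 8 neuron, 7 oligodendrocyte, 10 microglia and blood or 7 endothelial markers, which include RBFOX3, MBP, PTPRC and PECAM1; the intervals reach up to 36.9%, 41.0%, 30.8% and 41.0%, so each of these short lists also allows the share of all coding genes. Of 30 glioblastoma driver genes 14 had a peak (46.7%). MET, the hepatocyte growth factor receptor, reached 82.2, ATRX 75.5 with 6 peaks, MDM4 51.5 and MYC 32.3. MDM2, a ubiquitin ligase, had 99.2 and 98.9 in 75 nt peaks on the opposite strand and 76.1 at best on its own. EGFR had 6 peaks from 10.5 to 15.4, all within 1150 nt at about 97.0% of the gene. RB1, PDGFRA, CDK4, TERT and IDH1 had none.

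Other lists fell between these, against 20.6% of all coding genes. Immediate early and stem transcription factors, most with short bodies (median 4.87 kb), had a peak in 20 of 33 (60.6%), led by SOX9, ZEB1 (39.0, 7 peaks), ID2 (37.2) and MYC, with none in FOS, JUNB, FOSL1, ID1 or NR4A1. DNA replication and repair had 30 of 45 (66.7%), with a median best score of 13.4. ATRX led it, NBN reached 43.8 and CLSPN 42.1, and MSH6 44.3 on the opposite strand and 43.3 on its own. Mitosis and centromere genes had 22 of 41 (53.7%), where PLK4 (44.6) and ASPM (41.7) followed MKI67 and CENPF; TOP2A, CDK1, PLK1 and CCNB1 had none. Giant scaffold proteins had 21 of 38 (55.3%) with a median body of 209.6 kb, so even there TTN, FLNA, MYH9, UTRN and DMD lacked a peak. RNA decay and microRNA genes had 21 of 37 (56.8%), led by UPF2 (104), then SMG1 with 78.6 on the opposite strand and 43.4 on its own, and UPF3B (46.0). XRN1, CNOT1 and DIS3 had none.

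Lists of matrix, signalling and trafficking genes had shares between 36.4% and 49.1%, against 20.6% of all coding genes. Extracellular matrix and adhesion had 21 of 49 (42.9%), with ITGA1 (109, in a 75 nt peak), VCAN, ITGB8 (76.6) and FAT1 in front and no peak in TNC, COL3A1, THBS1, SPARC or ITGB1. Receptor kinase, RAS and PI3K signalling had 27 of 55 (49.1%), with a median best score of 11.9; after MET came ERRFI1 (41.9), PIK3R1 (27.6) and PIK3CA (23.7), and NRAS, AKT1 and STAT3 had none. Endocytosis and recycling had 16 of 44 (36.4%), with USP8 (75.5), RAB11FIP2 (51.3), RAB8B (38.1) and ARF6 (24.0), and none in RAB5A, RAB7A, RAB11A or LAMP1. Of 24 transcripts often used as m6A examples 14 had a peak (58.3%), led by ZNF638 (108) with EP300, TUG1 and SON; MAT2A, MALAT1, NEAT1, CCND1 and FOXM1 had none.

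Along coding genes peaks leaned to the 3′ end. By the middle of the peak, 3049 of 8851 (34.4%, interval 33.5 to 35.4) were in the last 10% of the gene body and 540 (6.10%) in the first 10%. The second to sixth of these 10 steps held between 4.37% and 5.97% each, and the share went up from 8.01% in the seventh to 14.6% in the ninth. Regular peaks had 37.6% in the last 10% and 5.78% in the first, and the 482 coding peaks among the 500 strongest 29.5% (25.4 to 33.8) and 4.77%. The median score was 12.2 in the last 10% and 11.4 in the first, and between 12.5 and 13.6 elsewhere. The lean depended on gene length. Of the 2213 peaks in the shortest bodies (up to 22.3 kb) 18.5% were in the last 10%, and of the 2210 in the longest (over 122 kb) 44.4%. In distance, 3819 peaks (43.1%) had their middle within 5 kb of the 3′ end of the gene and 1293 (14.6%) within 5 kb of the 5′ end. Within 1 kb these were 9.37% and 3.47%.

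**Figure D4:**
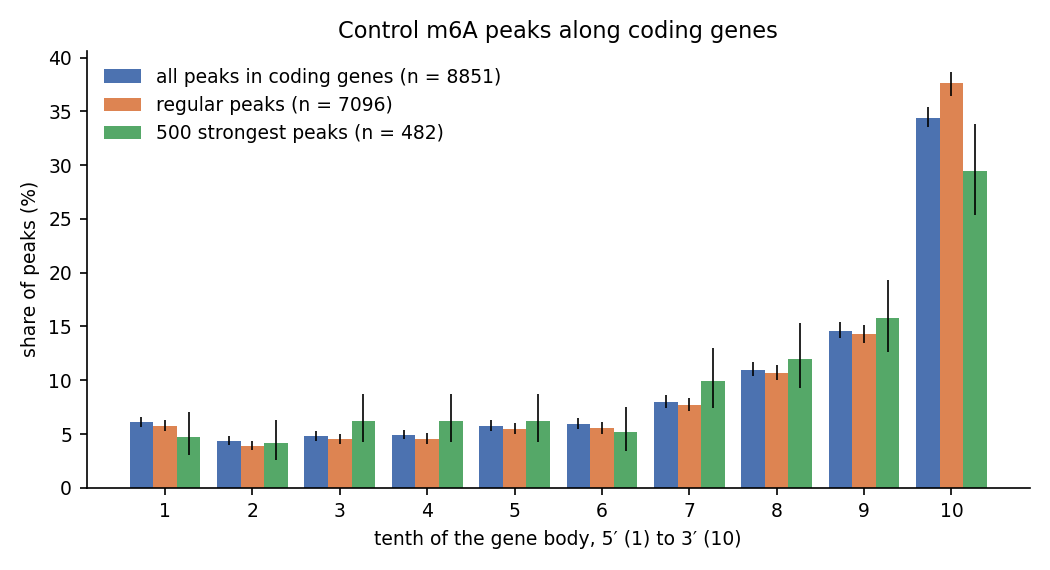
Share of peaks (percent, with exact 95% intervals) in 10 steps of the gene body from 5′ to 3′, for all 8851 peaks in coding genes, the 7096 regular ones and the 482 coding peaks among the 500 strongest. The last 10% holds 34.4%, 37.6% and 29.5%.

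The strongest peaks of the last 10% were those of ANKDD1A, HMGN5 (98.7% along the gene), ZNF146 (95.6%) and PANX1 (98.1%), and the 133 peak of KMT2E on the opposite strand (98.2%). The strongest of the first 10% were that of N4BP2L2 (118, at 2.27%), PELO (110.2, a 75 nt peak at 2.71%), UPF2 (104, at 8.95%) and ZKSCAN7 (99.5, a 75 nt peak on the opposite strand, at 8.31%). The ZKSCAN7 peak also lies within the long non-coding gene ZKSCAN7-AS1, on the strand of that gene. The start-site windows used here gave no strand for N4BP2L2, so its place rests on the strand of the peak. A ZFPM2 peak of 142 also counts in the first 10%. The windows gave no strand for ZFPM2 either, so the direction was taken from the minus-strand peak. Read the other way, this peak is near the 3′ end, where a plus-strand ZFPM2 peak of 120.2 counts at 97.5%. Of the 347 genes with 5 or more peaks, 39 had all of them in the last 10%, 29 had peaks in both the first and the last, and 51 had all in the same one of the 10 steps.

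Neighbouring peaks formed clusters. With peaks on the same strand joined where the gap was at most 250 nt, 390 clusters of 3 or more held 1335 peaks (14.5%, interval 13.8 to 15.2) in 355 genes, while 5795 peaks stood alone. The share was 7.09% at a gap of 100 nt, 26% at 1000 nt and 6.60% with only peaks wider than 75 nt. The median gap between neighbours in 1 gene and strand was 375 nt, and 97.6% of gaps up to 1000 nt were multiples of 25 nt, the step seen in the widths, so how finely neighbours are split follows that step. The largest clusters had 8 peaks each. In PHF3, a protein that binds RNA polymerase II, the cluster covered 2398 nt at chr6:63711326-63713723 with scores from 11.2 to 68.3. In CENPF it covered 5504 nt at chr1:214643244-214648747 with scores from 12.9 to 63.8. BOD1L1 had 7 in 2400 nt (10.1 to 38.1).

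Clusters of 6 were found in SAMD9L (2100 nt, 18.7 to 112), SPEN (8435 nt, 12.4 to 56.9), RAI14 (1400 nt, 15 to 54.6), ZBTB1 (1975 nt, 11 to 40.3) and a further stretch of CENPF (1125 nt, 9.87 to 25.2). EGFR, MYCBP2 and ZNF432 had clusters of 6 as well, ranked lower by score. In 29 genes there were at least 2 clusters: ZNF608 had 4, which held all its 13 peaks, and CENPF, MKI67, PRICKLE1 and ZBTB38 had 3. In PRICKLE1, 2 of the 3 face each other on opposite strands at the same place. Peaks in clusters had a median score of 14.0 against 11.9 for peaks alone, and 34.0% and 33.6% of them were in the last 10% of the gene. Clustered peaks and peaks alone were thus placed alike along genes by this measure.

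Wider peaks scored higher up to about 500 nt. The median score was 9.97 at 50 nt, 14.0 between 101 and 200 nt and 23 between 201 and 500 nt, and it was 15 over 1000 nt. Against this, 40 of the 500 strongest peaks were at most 75 nt wide. Of these 40, 24 formed 12 pairs on the same strand within 250 kb whose scores differed by at most 5%. Of the 460 wider ones 37 (8.04%) did so. The pairs were PCDHB5 with PCDHB19P, PELO (110.2) with ITGA1 (109) in which PELO lies, TXLNB with a locus-number gene (135 and 135), and pairs within ANKRD12 (150.1 and 147), NFYA (101 and 102), MDM2 (99.2 and 98.9), SOX2-OT (82.2 and 81.0), TUG1 (74.1 and 74.5), ERCC5 (62.4 and 64.9) and RBM25 (47.1 and 47.8), beside a pair in a locus-number gene and one that starts in TIMM23B-AGAP6. Their members lay between 1.19 kb (MDM2) and 142 kb (TXLNB) apart.

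Narrow strong peaks were also often on the strand opposite to the gene. Of those 40, 16 of the 34 with a known gene strand (47.1%) were opposite to the gene, against 19 of 397 wider ones (4.79%). Over the whole list 646 peaks (7.02%) shared bases with a peak on the other strand, in 355 pairs. Of these, 246 of the 542 with a known gene strand (45.4%) were opposite to the gene, against 187 of 6928 other peaks (2.70%). Where both peaks of a facing pair lie in the same gene, a peak opposite to it is present by definition. The 45.4% is thus largely fixed by how these peaks were picked. The XAF1 peaks face each other in this way, as do the best peaks of OGFRL1 (162 and 121), IWS1 (149 and 81.5) and KMT2E. Scores of PCDHB5, TXLNB, WTAP, EP300 and MDM2 quoted above rest on narrow opposite-strand peaks. A peak is called opposite by its coding gene, also where a long non-coding gene on the strand of the peak holds it, as at ZKSCAN7. What sets these narrow and facing peaks apart was not tested.

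**Figure D5:**
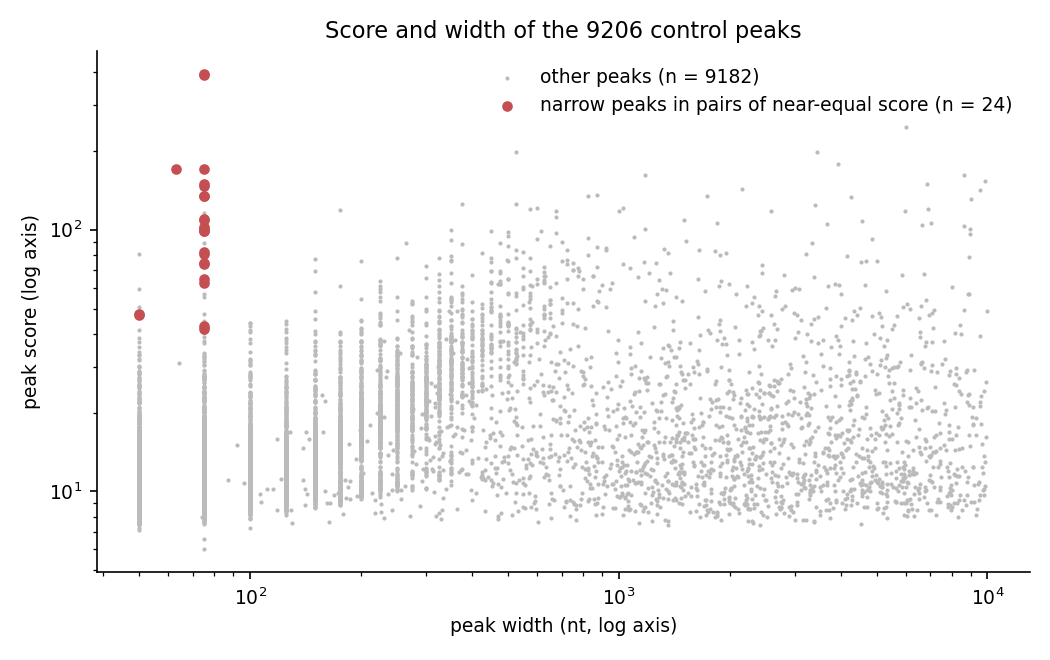
Score against width (both log axes) of all 9206 control peaks, 1 point per peak; red marks the 24 narrow peaks among the 500 strongest that form 12 pairs of near-equal score. The red points lie at 50 to 75 nt and reach 392, while other peaks of that width seldom exceed 80.1, the score that 1% of all peaks exceed.

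Long non-coding genes held 2.32% of the peaks, or 9.69% if they took a peak before an overlapping coding gene, and 0.852% of them had one. Apart from LOC102724687 and LOC107986651, given above, the strongest were in LINC00342 (103, 8654 nt wide), ZKSCAN7-AS1 (88.9, 75 nt), EP300-AS1 (82.7, 1827 nt), SOX2-OT (82.2), PPM1B-DT (59.4, a 50 nt peak on the opposite strand), OTUD6B-AS1 (58.1), FGD5-AS1 (53.3) and NORAD (44.9). The 99.5 peak that also lies in ZKSCAN7-AS1 was given to ZKSCAN7. NORAD, which binds PUMILIO proteins, had 4 peaks that scored 14.7, 44.9, 13.9 and 18.9 from 5′ to 3′. LINC-PINT had the most, 7, of which 5 lay within the first 0.782% of the gene. JPX, an activator of XIST, had 6, 4 of them on the opposite strand. Of 27 well-known long non-coding genes 10 had a peak. MALAT1, NEAT1, HOTAIR, GAS5, CRNDE, PVT1, H19 and DANCR were among the 17 without one. TUG1, classed as coding in the RefSeq table and best known as a non-coding RNA, had 12 peaks on its own strand, which scored between 10.3 and 32.2, and 4 on the other, which scored 74.5, 74.1, 17.6 and 14.0.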

How the data were processed

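The authors deposited 1 peak list per condition as a 12-column BED file without a header. Column 5 holds a score from the authors' peak caller, whose scale is not stated, per the file contents. HISAT2 2.2.1, SAMtools, featureCounts 2.0.1 and GRCh38 are named per the submitters' processing notes; no peak caller, threshold or read depth is given in the sources used here. Coordinates count from 1. Every peak was given the innermost coding gene of RefSeq (GRCh38.p14) that holds it, else the one sharing most bases, then long non-coding and other genes by the same rule. Strand was known for 15843 of 20050 coding genes from the RefSeq start-site table; otherwise direction came from the peak. Gene lists hold 24 sets. The members and lists were chosen with earlier results of these data known. Named are the 15 genes with the strongest peak and with the most peaks, 8 largest clusters, 8 families at each end, up to 4 members per list by score and members without a peak, 5 strongest peaks per gene end and 8 long non-coding genes; LOC symbols were skipped, and any other gene was chosen after its values were seen. Lists in which a gene recurs count it each time. Python 3.11.15, numpy 2.4.6, pandas 2.3.3, scipy 1.17.1 and matplotlib 3.10.9 were used. The placing was tested on simulated data (500 of 500 peaks put in the right gene). Each simulated peak lay inside a coding gene of known strand that overlaps no other coding gene. Peaks in nested or overlapping coding genes were not simulated, so their placing was not tested. No test between groups was made. Alternatives for score threshold, width, gene assignment, strand, anchor and gap were run. Some listed genes are not reported here by name.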

Additional observations from a re-analysis of the deposited data

How the results depend on the processing

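Of 48 values over 8 shares, 21 stayed within the interval of the main value and 27 moved; none has a test. With the best-scoring 50% of peaks, coding genes with a peak were 12.2%, ZNF genes 22.6%, peak genes with 5 or more peaks 5.05%, clustered peaks 10.3%, long non-coding peaks 1.63%, the last 10% 33.1% and the first 4.91%. With regular peaks, coding genes were 17.6%, genes with 5 or more peaks 6.89% and the last 10% 37.6%. With peaks wider than 75 nt, a choice made after seeing the data, coding genes were 15.9%, ZNF genes 36.6%, genes with 5 or more peaks 4.09%, clustered peaks 6.60%, long non-coding peaks 1.90%, the last 10% 33.4% and the first 5.50%. Counting every coding gene touched gave 21.9%, and the strand of the gene alone, over genes of known strand, 21.8%. Merging peaks within 100 nt left 4.09% of genes with 5 or more. Clusters held 7.09% of peaks at a gap of 100 nt and 26% at 1000 nt. Placing a peak by its 5′ end gave 33.3% in the last 10% and 7.05% in the first, and direction from the peak's strand 33.3% and 7.24%. Giving long non-coding genes the peak first raised their share of peaks from 2.32% to 9.69%, since many overlap coding genes. Ribosomal protein genes fell from 4.88% to 2.44% (2 of 82 genes) with the best-scoring 50% or the wider peaks, within the wide interval of the main value, and were at 4.62% or 4.88% otherwise. With the preference for genes on the peak's strand, also chosen after seeing the data, no share left its interval. Fewer peaks enter under the score and width settings, which lowers counts by construction. No paired analysis was possible because the control has 1 library pair. Leaving out a replicate was not possible either. Read depth is not known here, so no limit of detection per gene can be given, and the absence of a peak shows neither absence of m6A nor absence of RNA.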
